A study of Homo sapiens with 6 samples.

Results

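Chromatin accessibility was examined at 10 genes of the JUN, FOS and ATF3 families, namely JUN, JUNB, JUND, FOS, FOSB, FOSL1, FOSL2, ATF3, BATF3 and MAFK. Every row of the deposited table of accessible regions that lay inside one of these genes or within 50 kb of it was taken, by the gene records of GENCODE 44 on hg38. This gave 268 of 171517 rows. The cells were of the established human embryonic stem line H9, held in the naive state in tt2iLGö medium, a medium with MEK, GSK3 and protein kinase C inhibitors and LIF. They were depleted of the mouse feeder layer, plated on laminin and given 0 mM (control, labelled DMSO) or 4 mM dm-αKG for 24 h. dm-αKG, or dimethyl α-ketoglutarate, is a form of the TCA cycle metabolite α-ketoglutarate that crosses membranes, and the study asked how it changes the use of regulatory elements in naive embryonic stem (nES) cells. ATAC-seq, in which a transposase cuts and tags open chromatin, was performed in 3 libraries per treatment. All 6 libraries came from 1 cell line, so the values describe that line.

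JUN and FOS family proteins carry a basic leucine zipper and pair with each other to form AP-1, a factor that binds TGANTCA. ATF and CREB proteins favour the related TGACGTCA, known as the cyclic AMP response element (CRE), and ATF3 and BATF3 can pair with JUN proteins. MAFK, a small MAF protein without an activation domain, pairs with NRF2 or BACH1 at the antioxidant response element (ARE), whose core overlaps that of AP-1. Many of these genes are immediate-early genes, whose transcription rises within minutes of a growth factor or stress signal.

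The rows around the 10 genes were more often higher than lower in dm-αKG. The test was the quasi-likelihood test of edgeR, fitted to the whole table with Benjamini-Hochberg adjustment. Called rows had an adjusted p under 0.01 together with a log2 fold change beyond 1 in either direction. Of the 268 rows, 4 were called higher (1.49%) against 0.782% of all rows, and 1 was called lower (0.373%) against 1.96% of all rows. At adjusted p below 0.01 with any fold change, 17 rows rose (6.34%, against 3.34% of all rows) and 11 fell (4.1%, against 6.54% of all rows). These counts were 7 and 6 with DESeq2, and 9 and 8 without control library 1 or without dm-αKG library 1, so the excess of rises over falls was smaller there. After thinning to the smallest library they were 11 and 11, so rises did not outnumber falls. The normalized counts of the treatments did not overlap for 72 rows with all dm-αKG libraries higher (26.9%, against 15.5% of all rows) and for 30 rows with all dm-αKG libraries lower (11.2%, against 16.9% of all rows). The median log2 fold change was 0.12 over these rows and 0.01 over all rows. With 3 libraries against 3, an exact permutation test of a single value cannot go below p = 0.10, so the significance of single rows rests on the fit over all rows.

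**Figure D1:**
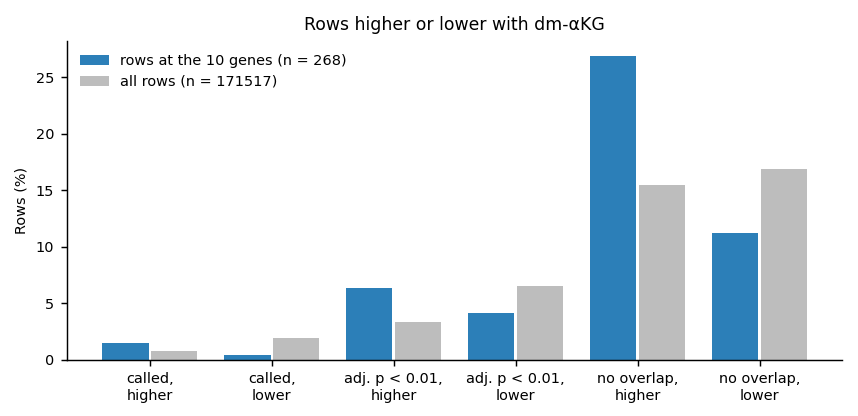
Percentage of rows (y axis) at the 10 genes (blue) and in the whole table (grey) that were called, that passed adjusted p below 0.01, or whose 3 dm-αKG libraries all lay on one side of the 3 control libraries. The blue bar exceeds the grey bar in each class of higher rows and is the shorter in each class of lower rows.

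The sequences of the called rows, of both AP-1 rows upstream of ATF3 and of the JUND promoter are shown because the results below turn on them. They are from hg38 and read on the plus strand, except the JUND promoter, which is the 250 bases before the start of the RefSeq transcript (GRCh38.p14, chr19:18281623-18281872, minus strand). Capitals mark AP-1 (TGANTCA), CRE (TGACGTCA), ARE (TGACNNNGC) and the composite CEBP-ATF motif (TGATGCAA), on either strand. The rows lay at chr19:18301186-18301387 and chr19:18300976-18301175 upstream of JUND, at chr14:75246119-75246318 and chr14:75307016-75307215 on either side of FOS, and at chr1:212546005-212546204 and chr1:212558901-212559174 upstream of ATF3.
JUND −19.7 kb, higher: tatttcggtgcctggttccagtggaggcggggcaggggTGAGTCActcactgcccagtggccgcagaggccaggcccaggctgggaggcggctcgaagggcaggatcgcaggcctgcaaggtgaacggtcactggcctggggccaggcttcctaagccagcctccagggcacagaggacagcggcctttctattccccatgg
JUND −19.5 kb, higher: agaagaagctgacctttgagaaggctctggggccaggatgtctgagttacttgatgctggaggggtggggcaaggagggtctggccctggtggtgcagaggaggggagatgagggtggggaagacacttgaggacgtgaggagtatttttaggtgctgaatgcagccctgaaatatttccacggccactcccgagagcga
FOS −32.6 kb, lower: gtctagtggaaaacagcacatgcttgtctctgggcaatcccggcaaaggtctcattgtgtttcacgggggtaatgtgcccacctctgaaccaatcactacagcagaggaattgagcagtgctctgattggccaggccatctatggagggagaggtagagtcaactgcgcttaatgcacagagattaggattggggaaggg
FOS +28.3 kb, higher: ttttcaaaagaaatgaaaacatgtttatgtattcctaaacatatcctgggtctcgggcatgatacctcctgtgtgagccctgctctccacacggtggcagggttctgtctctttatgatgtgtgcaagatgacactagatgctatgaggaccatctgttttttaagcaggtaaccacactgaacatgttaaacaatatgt
ATF3 −62.7 kb: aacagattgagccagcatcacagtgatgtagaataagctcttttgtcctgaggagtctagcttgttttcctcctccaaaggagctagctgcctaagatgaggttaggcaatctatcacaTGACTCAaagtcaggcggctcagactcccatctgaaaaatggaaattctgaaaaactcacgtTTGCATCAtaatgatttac
ATF3 −49.7 kb: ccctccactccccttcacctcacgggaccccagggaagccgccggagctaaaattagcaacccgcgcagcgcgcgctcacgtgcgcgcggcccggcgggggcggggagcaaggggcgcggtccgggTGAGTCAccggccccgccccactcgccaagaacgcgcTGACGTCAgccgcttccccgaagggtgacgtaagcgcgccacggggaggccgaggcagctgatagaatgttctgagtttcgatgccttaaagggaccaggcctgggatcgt
JUND promoter: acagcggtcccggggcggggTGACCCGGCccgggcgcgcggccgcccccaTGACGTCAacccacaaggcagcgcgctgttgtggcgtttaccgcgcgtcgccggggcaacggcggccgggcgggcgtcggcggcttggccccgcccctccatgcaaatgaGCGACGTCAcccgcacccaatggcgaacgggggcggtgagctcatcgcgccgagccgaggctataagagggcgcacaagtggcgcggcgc

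Distances are from the start of the canonical transcript to the centre of the row, negative upstream. The other called row, 9.9 kb downstream of JUNB, overlapped a UTR of PRDX2, and a row 43.5 kb upstream of FOSB overlapped a UTR of ERCC1. For these, only 29 bases around the AP-1 match are shown (chr19:12801344-12801372 and chr19:45424431-45424459, hg38, plus strand), with AP-1 in capitals and, at FOSB, also the ARE that overlaps it.
JUNB +9.9 kb, higher: ggccctatgacTGAGTCAgcacggcggag
FOSB −43.5 kb, higher: gggggagcgccTGACTCAGCcccggagtc

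The rows were 200 to 426 bp wide, with a median of 204 bp. Their median normalized count was 104, against 65.4 over all rows, and the lowest raw count in any library was 5. JUNB had 44 rows, FOSL1 38, FOSB 33, MAFK 32, JUND 30, FOS 24, BATF3 19, FOSL2 17, ATF3 16 and JUN 15, with 5 rows in both the ATF3 and BATF3 windows counted once, at the nearer gene. Many windows are gene-dense, and 159 of the 268 rows lay closer to the start of another protein-coding gene than to the member gene. A row is therefore named by its position and not as an element that controls the gene. Libraries held 13025674 to 26828622 counts in rows. Accessibility in bulk cells cannot tell a change in the number of cells that open a site from a change per cell.

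Rows close to gene starts were more common here than in the whole table, as 41.4% of the 268 rows lay within 1 kb of the start of a protein-coding gene against 29.7% of all rows. Such rows had a median log2 fold change of 0.10 in the whole table and rows farther away −0.05. At the 10 genes the medians were 0.18 for 111 rows near a start and 0.08 for 157 rows farther away. The rows were also richer in G and C, with a median of 62.5% against 55.5% over all rows. Among rows farther away it was 58.9% against 52.4%. The part of base content in the fold changes was not tested. Near a start, 8 rows rose (7.21%, against 4.47% of all such rows) and 0 fell (against 2.08%) at adjusted p below 0.01. Farther away, 9 rose (5.73%, against 2.86%) and 11 fell (7.01%, against 8.42%). All 11 rows that fell were thus over 1 kb from any protein-coding start, as were 10154 of the 11213 rows that fell in the whole table.

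The promoters of the 10 genes were open in both treatments, and none passed the test. The promoter row was the row of highest count within 1 kb of a start of the gene. In edgeR, 0 of 10 had adjusted p below 0.01, 4 had an unadjusted p below 0.05, and DESeq2 and limma also gave 0. Of all rows within 1 kb of a protein-coding start, 4.47% rose and 2.08% fell in edgeR at adjusted p below 0.01. A count of 0 of 10 is near these shares and does not set the 10 promoters apart. The share at an unadjusted p below 0.05 was not taken over all rows. The log2 fold changes ran from −0.29 at BATF3 to 0.26 at JUNB, with 7 of 10 above 0 and a median of 0.05.

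**Figure D2:**
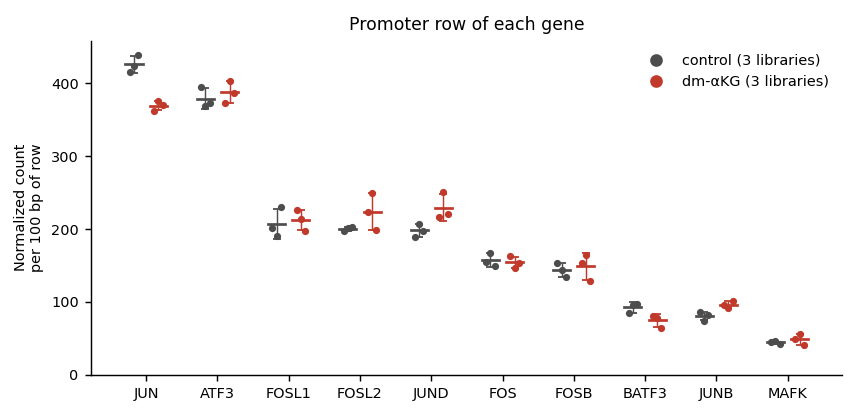
Normalized count per 100 bp (y axis) in the promoter row of each gene, ordered by the control mean. Points are libraries, horizontal lines means and bars SD (n = 3); JUN and BATF3 lie below and JUNB and JUND lie above the control libraries in all 3 dm-αKG libraries.

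JUN, the founding AP-1 subunit and the strongest activator of the JUN family, had the most accessible promoter. Its promoter row, 0.2 kb upstream of the start, had normalized counts of 870, 885 and 917 in control and 758, 785 and 775 in dm-αKG, a log2 fold change of −0.21 (SE 0.07) with an edgeR adjusted p of 0.021. All dm-αKG libraries were thus below all control libraries, but the difference missed the threshold. JUNB and JUND, whose products are weaker activators that can oppose JUN, went the other way. The JUNB promoter had 174, 151 and 166 in control and 195, 186 and 205 in dm-αKG (0.26, SE 0.12, edgeR adjusted p = 0.147). The JUND promoter had 398, 435 and 415 in control and 455, 527 and 464 in dm-αKG (0.21, SE 0.08, edgeR adjusted p = 0.0682). Neither pair of groups overlapped, and neither difference passed.

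FOS, FOSB, FOSL1 and FOSL2 encode the partners that AP-1 forms with JUN proteins, since FOS proteins do not pair with themselves. Their promoter rows had log2 fold changes of −0.03, 0.05, 0.05 and 0.16, with overlapping libraries in each. ATF3, a stress-induced repressor or activator depending on its partner, had 851, 792 and 803 in control and 803, 867 and 832 in dm-αKG (0.03, SE 0.07, edgeR adjusted p = 0.804). BATF3, known for its role in dendritic cells, had 172, 195 and 199 in control and 166, 160 and 130 in dm-αKG (−0.29, SE 0.13, edgeR adjusted p = 0.113). Its libraries did not overlap, and this difference also missed the threshold. The promoter row of MAFK had a log2 fold change of 0.13 (SE 0.17, edgeR adjusted p = 0.652).

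Per 100 bp, the control level of the promoter row was 426 ± 11.4 at JUN, 379 ± 14.6 at ATF3, 207 ± 20.9 at FOSL1, 201 ± 2.7 at FOSL2, 198 ± 8.78 at JUND, 158 ± 9.35 at FOS, 144 ± 10.1 at FOSB, 92.4 ± 7.24 at BATF3, 80.7 ± 5.6 at JUNB and 44.6 ± 2.03 at MAFK (mean ± SD, n = 3). FOSL1, FOSL2 and JUND overlapped each other, as did FOS and FOSB, and BATF3 and JUNB. At FOSB this row lay 1.3 kb downstream of the canonical start and 554 bp upstream of another start of the gene, and the row at the canonical start was less accessible.

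Weaker rows just inside JUNB, FOSL1 and FOS had larger fold changes than the promoter rows beside them. In all, 29 rows lay within 1 kb of a start of one of the 10 genes, of which 2 rose (6.9%) and 0 fell at adjusted p below 0.01, and 22 had a fold change above 0 (75.9%). Over all rows within 1 kb of a protein-coding start these shares were 4.47% higher and 66.1% above 0, close to those at the 10 genes. The row 299 bp downstream of the JUNB start rose from 62.6, 79.7 and 74.1 in control to 138, 110 and 112 in dm-αKG (log2 fold change 0.76, SE 0.17, edgeR adjusted p = 0.000582). Every dm-αKG library was above every control library, and the peak was in the dm-αKG list only. Without control library 1 the adjusted p was 0.0129 and without dm-αKG library 1 it was 0.0288, so it missed the threshold without either of these libraries and passed without any 1 of the others. The other row that rose lay 492 bp upstream of the JUND start, with 288, 277 and 239 in control and 354, 391 and 296 in dm-αKG (0.37, SE 0.10, edgeR adjusted p = 0.00379).

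Inside FOSL1, which encodes the FOS family protein FRA1, the row 290 bp downstream of the start had 10.7, 30.4 and 15.8 in control and 40.9, 37.2 and 41.9 in dm-αKG. Its log2 fold change of 1.04 (SE 0.31) had an edgeR adjusted p of 0.0122 and did not pass. Inside FOS, the row at 718 bp had 49.2, 36.2 and 51.0 in control and 70.3, 75.7 and 70.3 in dm-αKG (0.68, SE 0.22, edgeR adjusted p = 0.0183), which also missed the threshold. In both, every dm-αKG library was above every control library. Other rows just inside a gene did not share this, as the row 374 bp inside MAFK had −0.09 against 0.13 at its promoter row. The rows in JUNB, FOSL1 and FOS were singled out after their values were seen, and their difference from the promoter rows was not tested.

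**Figure D3:**
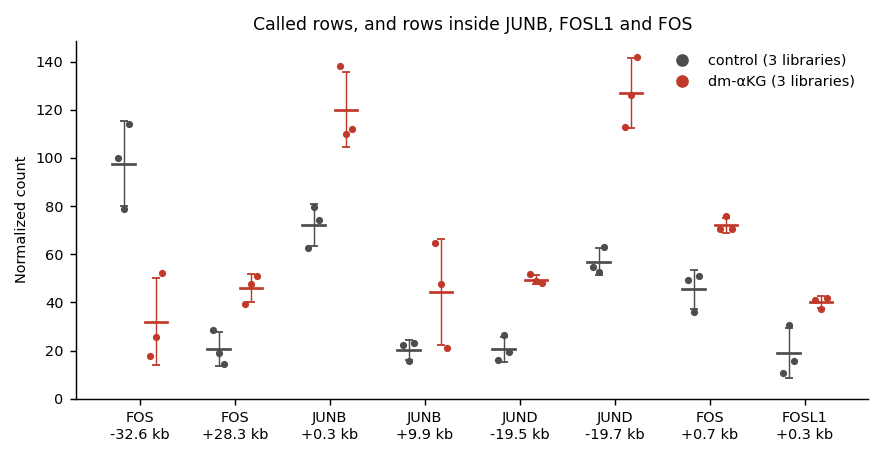
Normalized count (y axis) of the 5 called rows and of rows inside JUNB, FOSL1 and FOS, labelled by distance from the start of the gene. Points are libraries, horizontal lines means and bars SD (n = 3); control and dm-αKG overlap at JUNB +9.9 kb and in no other row shown.

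JUND had the largest share of rows that rose among the 10 genes, with 0 that fell (against 6.54% of all rows). At an edgeR adjusted p below 0.01, 5 of its 30 rows rose (16.7%, against 3.34% of all rows). The strongest was the row 19.7 kb upstream, which carries the AP-1 match TGAGTCA printed above. It rose from 54.6, 52.6 and 63.2 in control to 113, 126 and 142 in dm-αKG (log2 fold change 1.15, SE 0.18, edgeR adjusted p = 4.76e-07). The neighbouring row at −19.5 kb rose from 16.1, 26.3 and 19.4 to 51.6, 48.7 and 47.9 (1.25, SE 0.28, edgeR adjusted p = 0.000611) and has none of the motifs searched. All dm-αKG libraries were above all control libraries in both rows. The first was in both peak lists, with a fold enrichment over background of 5.81 in control and 10.3 in dm-αKG. The second was listed as a peak in control only, at 2.30, although its counts were higher in dm-αKG. Without control library 1 the second row had an adjusted p of 0.0114. Both rows are intergenic, and the nearest protein-coding start was that of LSM4 and not of JUND.

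Among the rows between the called rows and the start of JUND were 6 at −10.5 to −12.6 kb. All were closest to JUND and had a fold change above 0, from 0.12 to 0.83. The row at −10.9 kb rose from 58.1, 77.3 and 66.8 to 135, 142 and 76.3 (0.83, SE 0.18, edgeR adjusted p = 0.000338), with dm-αKG library 3 just under the highest control library. The row at −11.4 kb had 212, 236 and 226 in control and 319, 318 and 229 in dm-αKG (0.38, SE 0.11, edgeR adjusted p = 0.00702), again with dm-αKG library 3 inside the control range. The most accessible of the cluster, at −11.8 kb, had 606, 640 and 600 against 752, 713 and 709 (0.24, SE 0.07, edgeR adjusted p = 0.0115). Its libraries did not overlap, and it missed the threshold. This cluster was chosen after its values were seen. Nearer the start, the row at −5.6 kb, also closest to JUND, went the other way. It had 79.6, 84.7 and 77.7 in control and 66.0, 56.4 and 55.4 in dm-αKG (−0.43, SE 0.19, edgeR adjusted p = 0.116). The row at −5.9 kb had 0.11 (SE 0.21). On the other side, the AP-1 row 27.8 kb downstream of JUND had 268, 217 and 202 in control and 169, 186 and 171 in dm-αKG (−0.40, SE 0.12, edgeR adjusted p = 0.0119), so not all rows at JUND lay above 0.

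**Figure D4:**
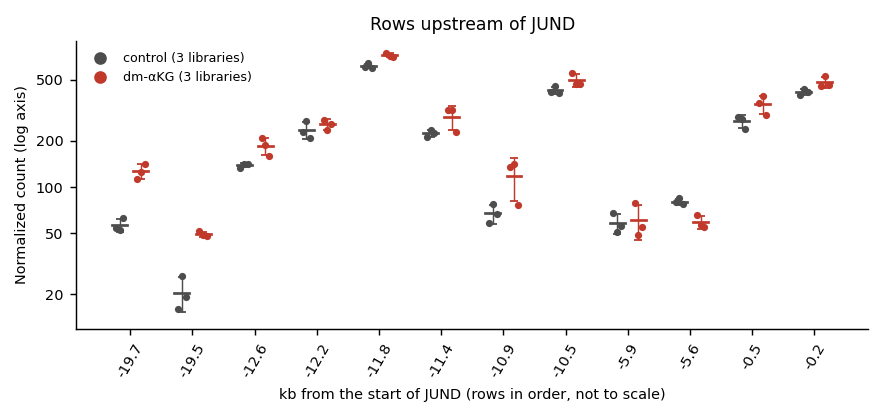
Normalized count (log y axis) in each row from 19.7 kb upstream of JUND to its start, in order along the x axis but not to scale. Points are libraries, horizontal lines means and bars SD (n = 3); the separation is widest in the rows at −19.7 and −19.5 kb.

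FOS, a classical immediate-early gene, had called rows in both directions. The row at −32.6 kb fell from 100, 78.9 and 114 in control to 17.9, 25.7 and 52.4 in dm-αKG (log2 fold change −1.72, SE 0.24, edgeR adjusted p = 1.69e-08). It lies in a long non-coding RNA gene, ENSG00000258740, was listed as a peak in control only, and holds none of the motifs searched. The row at +28.3 kb rose from 28.6, 18.9 and 14.6 to 39.4, 47.5 and 50.9 (1.10, SE 0.29, edgeR adjusted p = 0.00418) and was listed in dm-αKG only. No libraries overlapped in either row. The rise was not called with DESeq2 (adjusted p = 0.0193), after thinning to the smallest library (edgeR adjusted p = 0.0115), or without control library 2 or 3 or dm-αKG library 2 or 3, whereas the fall was called in every other fit tried. Another row, at +9.5 kb, fell from 235, 265 and 232 to 141, 126 and 174 (−0.75, SE 0.12, edgeR adjusted p = 1.71e-06). The most accessible row away from a start, at +15.4 kb, had a log2 fold change of 0.04 (SE 0.07), so accessibility around FOS did not move as 1 block.

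JUNB lies in a gene-dense stretch, and only 4 of its 44 rows were closest to its own start. The called row at +9.9 kb overlaps PRDX2, which encodes a peroxiredoxin that removes peroxides, and lies 441 bp from the PRDX2 start. It had 22.4, 15.6 and 23.1 in control and 64.5, 47.5 and 21.0 in dm-αKG (log2 fold change 1.21, SE 0.30, edgeR adjusted p = 0.00194). Library 3 of dm-αKG lay within the control range. The call was lost with DESeq2 and limma, after thinning to the smallest library (0.80, edgeR adjusted p = 0.0972), without control library 2 (1.05, edgeR adjusted p = 0.026) and without dm-αKG library 1 (0.79, edgeR adjusted p = 0.17). Against this, the row at +4.8 kb, inside HOOK2, fell from 187, 202 and 197 to 148, 133 and 136 (−0.48, SE 0.13, edgeR adjusted p = 0.00444).

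FOSB shares its window with ERCC1, a DNA repair gene, RTN2 and VASP. Of its 33 rows, 4 rose (12.1%, against 3.34% of all rows) and 2 fell (6.06%, against 6.54%). Of these 6 rows, none was closest to FOSB. The smallest p was at −23.5 kb, within ERCC1, where counts rose from 224, 164 and 171 to 296, 299 and 272 (0.63, SE 0.11, edgeR adjusted p = 9.89e-06). The row at −43.5 kb, which holds an AP-1 and an overlapping ARE match, rose from 55.5, 75.6 and 53.4 to 98.2, 110 and 105 (0.74, SE 0.18, edgeR adjusted p = 0.0019). It lies 99 bp from the ERCC1 start, and no control library reached any dm-αKG library. The 2 rows that fell lay next to each other at +46.7 and +47.3 kb in VASP, with −0.40 and −0.69.

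At FOSL1, 2 of 38 rows rose (5.26%) and 1 fell (2.63%), against 3.34% and 6.54% of all rows. The row with the smallest p, at −19.5 kb and 155 bp from the start of DRAP1, a transcriptional corepressor gene, rose from 68.0, 59.2 and 43.7 to 102, 119 and 97.3 (0.87, SE 0.19, edgeR adjusted p = 0.00026). At FOSL2, which encodes FRA2, 0 of 17 rows rose and 1 fell (5.88%). The fall was at −41.7 kb, from 101, 101 and 123 to 67.4, 65.4 and 62.9 (−0.71, SE 0.18, edgeR adjusted p = 0.00207). The libraries did not overlap in either row, but the FOSL2 row missed adjusted p below 0.01 with DESeq2 (adjusted p = 0.0106), without control library 3 and without dm-αKG library 1.

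**Figure D5:**
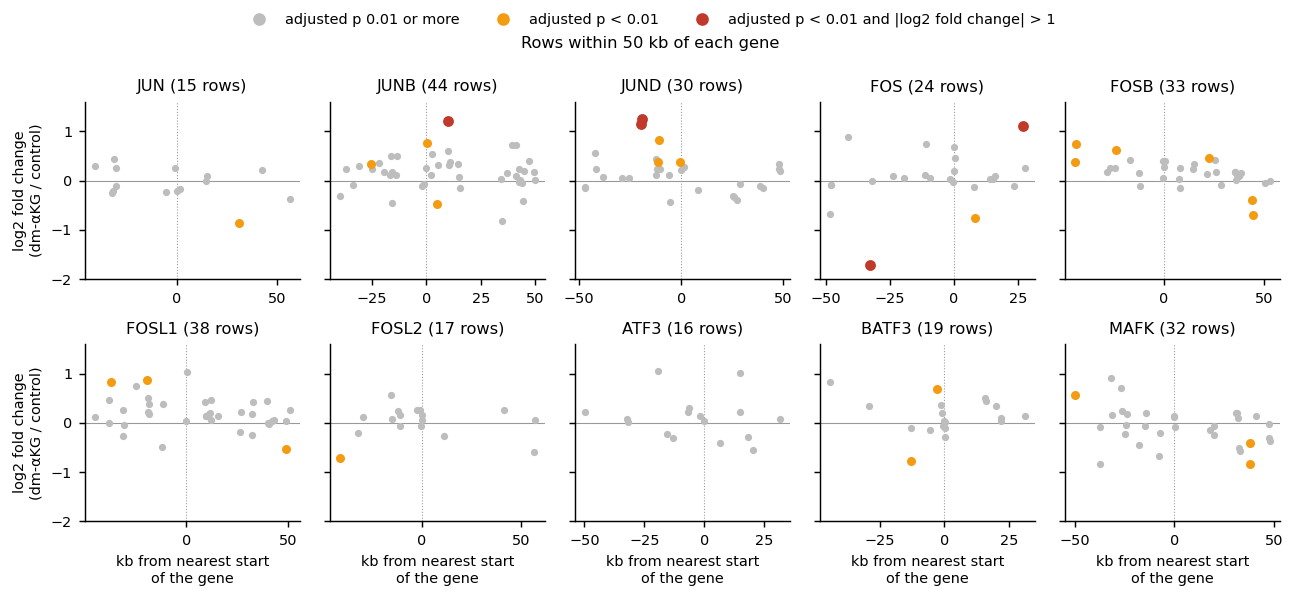
log2 fold change of dm-αKG over control (y axis) of every row against its distance from the nearest annotated start of the gene (x axis, kb), 1 panel per gene. Orange points passed adjusted p below 0.01 and red points were also called; red points occur at JUNB, JUND and FOS.

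JUN differed from JUNB and JUND in the sign of its median, −0.10 against 0.17 and 0.16. The windows were unlike, as 6.67% of JUN rows lay within 1 kb of a protein-coding start, against 59.1% at JUNB and 33.3% at JUND. Rows near such starts had the higher median in the whole table. The 4 rows closest to JUNB itself had a median of 0.09. The part of this in the difference was not tested. Its 1 row past the threshold fell, at +30.8 kb in a long non-coding RNA gene (ENSG00000283445), from 179, 198 and 148 to 98.2, 69.3 and 127 (−0.86, SE 0.15, edgeR adjusted p = 1.02e-05). The summed counts of all JUN rows were 2127, 2247 and 2192 in control and 2044, 1941 and 2045 in dm-αKG. Those of JUND were 5140, 5334 and 5026 in control and 6085, 5873 and 5378 in dm-αKG. The sums did not overlap at either gene, and JUN was lower and JUND higher in dm-αKG. Sums were also higher without overlap at JUNB, FOS, FOSB, FOSL1 and BATF3 (log2 ratios of 0.14, 0.02, 0.14, 0.12 and 0.06), lower without overlap at MAFK (−0.08), and overlapping at FOSL2 and ATF3 (0.05 and 0.03). No test was run on the sums or on the difference between genes. Sums were not taken over other windows, so how often they separate elsewhere is not known. At JUNB, FOSB and FOSL1 only 4 of 44, 4 of 33 and 2 of 38 summed rows were closest to the gene itself.

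ATF3 had no row past the threshold in either direction, by edgeR at adjusted p below 0.01, among its 16 rows, of which 3 had an unadjusted p below 0.05 and were higher and 2 lower. The smallest p was at the row 62.7 kb upstream of the canonical start and 19.2 kb upstream of the nearest ATF3 start, in the long non-coding RNA gene LINC01740. It had 11.6, 22.2 and 17 in control and 35.1, 32.1 and 40.4 in dm-αKG (1.06, SE 0.33, edgeR adjusted p = 0.0141). All dm-αKG libraries were higher, and the peak was listed in dm-αKG only, at low counts. It was called when rows under 10 counts in any library were left out (1.05, edgeR adjusted p = 0.00793) and had 0.84 with an adjusted p of 0.108 without control library 1. As printed above, it carries an AP-1 match and a CEBP-ATF composite match. The row at −49.7 kb, which carries AP-1 and CRE, had 137, 178 and 140 against 193, 187 and 187 (0.31, SE 0.13, edgeR adjusted p = 0.0799).

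At BATF3, 1 of 19 rows rose and 1 fell (5.26% each, against 3.34% and 6.54% of all rows). The rise was at +9.5 kb, from 59.9, 80.6 and 74.1 to 125, 106 and 109 (0.68, SE 0.17, edgeR adjusted p = 0.00235), and the fall at −13.0 kb, from 163, 182 and 197 to 96.8, 98.8 and 123 (−0.78, SE 0.14, edgeR adjusted p = 1.94e-05). At MAFK, 1 of 32 rows rose (3.12%) and 2 fell (6.25%), and 0 of these 3 was closest to MAFK. The stronger fall, at +46.2 kb in PSMG3-AS1, went from 267, 289 and 266 to 156, 144 and 162 (−0.83, SE 0.12, edgeR adjusted p = 2.19e-08). No libraries overlapped in these 3 rows.

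AP-1 matches were found in 22 of the 268 rows (8.21%), against 6.64% of all rows. Of these 22 rows, 15 had a fold change above 0 (68.2%), close to the 66.4% of the 268 rows and above the 51.2% of all rows. By edgeR at adjusted p below 0.01, 3 rose (13.6%, against 6.34% of the 268 rows and 3.34% of all rows). None fell, against 4.1% and 6.54%, with 2 lower at an unadjusted p below 0.05. The rows that rose were those at JUND −19.7 kb, FOSB −43.5 kb and JUNB +9.9 kb, and none of them was closest to the gene of the family. The row at JUNB +9.9 kb did not pass with DESeq2 or limma. The share that rose among all rows with an AP-1 match was not taken. The median log2 fold change of all 22 was 0.15, against 0.04 over all 11391 rows with an AP-1 match. Of the 9 AP-1 rows closest to a family gene itself, 0 passed in edgeR and 2 had an unadjusted p below 0.05, both higher.

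CRE matches were found in 5 rows (1.87%, against 0.503% of all rows), at the JUND promoter, 3 rows around FOSB and the row 49.7 kb upstream of ATF3. All 5 had a fold change above 0, as did 66.4% of the 268 rows and 51.2% of all rows. Their median was 0.26, and 0 had an edgeR adjusted p below 0.01. ARE matches, which include some AP-1 matches followed by GC, were found in 25 rows (9.33%, against 10.2%), and CEBP-ATF matches in 4 (1.49%, against 0.871%). The CArG box of serum response elements was found in 6 rows (2.24%, against 0.931%), among them the FOS promoter row and the most accessible row downstream of FOS. TEAD (ACATTCC), SOX (ACAAAG) and KLF (GGGTGTGG) matches were found in 8, 27 and 13 rows (2.99%, 10.1% and 4.85%, against 4.7%, 13.9% and 4.47%). Of the 10 genes, 7 had a RefSeq promoter sequence, and 1 of them, JUND, held a CRE, which 1.65% of 35116 RefSeq promoters of the same length hold. The RefSeq sequences of ATF3 lay away from its canonical start and did not cover its promoter row. That row was searched with the 268 rows and held 0 CRE matches. The 268 rows were richer in G and C and more often near gene starts than all rows. Motif shares among rows alike in these were not taken, so the part of these traits was not tested. A match describes the letters of a row and does not show that a factor was bound.

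Few promoter rows of genes that act with these families passed adjusted p below 0.01. Of all rows within 1 kb of a protein-coding start, 4.47% rose and 2.08% fell at this threshold in edgeR. Counts near 0 in lists of this size are close to those shares. Of 13 promoter rows of bZIP partner genes, 0 passed in edgeR, DESeq2 or limma and 2 had an unadjusted p below 0.05. The nearest to the threshold was ATF4, the effector of the integrated stress response, at 0.27 (SE 0.08, edgeR adjusted p = 0.0128). Of 10 upstream regulators, among them MAP kinases and SRF, 0 passed by any of these tools and 2 had an unadjusted p below 0.05. Of 11 other immediate-early genes, 1 rose, NR4A1, an orphan nuclear receptor, from 484, 463 and 534 to 586, 659 and 585 (0.31, SE 0.08, edgeR adjusted p = 0.00209). Of these 11, 2 had an unadjusted p below 0.05. ZFP36 had the largest fold change of the list, 0.39 (SE 0.13, edgeR adjusted p = 0.0224), and missed the threshold. EGR1, another such gene, had a log2 fold change of 0.00 (SE 0.07). Of 9 known AP-1 targets, 0 passed by any of these tools, with 2 at an unadjusted p below 0.05.

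The labelled cell type was checked at marker promoters. Of 9 naive and general pluripotency genes, 8 had a promoter row and DPPA3 had none. Rows are 1 merged set for both treatments, so a row alone does not show that a promoter was open in each. Of the 8, SUSD2 rose (0.33, SE 0.07, edgeR adjusted p = 0.000108) and KLF17 fell (−0.39, SE 0.09, edgeR adjusted p = 0.001). Promoter rows were also present for 6 of 7 trophoblast, 5 of 5 primitive endoderm and 7 of 7 fibroblast and mesoderm markers, so accessibility at a promoter did not separate these cell types. In each of these lists 0 rows passed in edgeR, DESeq2 or limma, and GATA6 alone had an unadjusted p below 0.05 (0.31, SE 0.11, edgeR adjusted p = 0.029). Near protein-coding starts in the whole table, 4.47% of rows rose and 2.08% fell in edgeR, so 0 in lists of this size is close to those shares. The median normalized count over the trophoblast markers was 192 to 210 in control and 203 to 221 in dm-αKG. The part of other cell types in the rows above was not tested.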

How the data were processed

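ATAC-seq libraries from H9 nES cells were analysed, 3 control and 3 dm-αKG. Controls are labelled DMSO, while the methods give 0 mM dm-αKG. The authors trimmed and aligned reads to hg38 with Bowtie2, filtered them with the ENCODE pipeline, called peaks with MACS2 and kept reproducible peaks per treatment. They cut these to 200 bp at the summit, merged both lists and deposited raw read counts per merged row, made with bedtools 2.28.0. The deposited peak lists also hold a score, a fold enrichment over background and −log10 p and q values; only membership and fold enrichment were used. Merged rows can be wider, and reads lack molecular identifiers.

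Counts were fitted on all 171517 rows with edgeR 4.0.16 (TMM, treatment as the only term). Normalized counts are counts scaled to a common effective library size. DESeq2 1.42.0, limma 3.58.1, other scalings, a filter on low counts, thinning to the smallest library, a replicate block, other windows and leaving out each library were tried. The fit was tested on simulated data. Rows named by rule are each promoter row and each called row. So are, per gene, the row of smallest adjusted p and the most accessible row away from a start. Other rows are also described singly, among them rows that passed the adjusted p threshold and rows with a motif match. Their choice followed no set rule and was made with their values known. Only some of them are marked so where they appear. Members, lists and motifs were chosen with earlier results of these data known. The study lists biological replicates; where these are not separate cultures, p-values measure technical spread.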

Additional observations from a re-analysis of the deposited data

How the results depend on the processing

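Called higher rows numbered 4 and called lower rows 1. With DESeq2 they were 2 and 1, at adjusted p below 0.05 they were 7 and 1, within 25 kb of the genes 4 and 0, and within 100 kb 7 and 3. Rows that rose or fell at adjusted p below 0.01 numbered 17 and 11. They were 7 and 6 with DESeq2 and 11 and 11 after thinning to the smallest library, so rises did not outnumber falls after thinning. The counts were 40 and 19 at adjusted p below 0.05 and 31 and 19 within 100 kb, and 4 rows fell within 25 kb. Leaving out rows under 10 counts in any library gave 6 called higher. Leaving out 1 library gave 3 to 5 called higher, 1 to 2 called lower (2 without dm-αKG library 3), 9 to 20 that rose and 7 to 11 that fell. The counts that rose were 9 without control library 1, 10 without control library 3, and 9 each without dm-αKG library 1 or 2. The count that fell was 7 without dm-αKG library 2. The median log2 fold change was 0.15 within 25 kb, against 0.12. Lower thresholds, fewer reads or libraries and other windows alter what is tested by construction, and the cause of the lower DESeq2 counts was not tested. No result reversed. With the replicate number as a block, 5 rows were called higher, 1 lower, 18 rose and 11 fell. Same-numbered libraries did not deviate together (r = −0.019, 0.008 and 0.04 over rows), so the numbers were not taken to pair them. The calls at FOS −32.6 kb and JUND −19.7 kb were made under every alternative that refitted the rows. Control counts near 20 per library limit the rows at JUNB +9.9 kb, FOS +28.3 kb, JUND −19.5 kb, FOSL1 +0.3 kb and ATF3 −62.7 kb.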
